A study of Homo sapiens with 4 samples.

Results

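The genes described here make cholesterol and fatty acids or control that synthesis. They were chosen by name, as all probes that are not controls and whose gene name on the array is among 31 listed genes. That rule uses names and not values, but the genes were listed with earlier results of these data known. No set test was run, and counts of members beside shares of all genes are descriptions. All 31 genes were found, with 52 probes, among 21509 named genes with a probe on the array, and 15761 named genes could be tested. The 31 genes were read in 3 groups, 18 enzymes of cholesterol synthesis, 6 genes of sterol sensing and transport, and 7 enzymes of fatty acid synthesis, elongation and desaturation. Where a gene had several probes, the brightest over the arrays gave its value. All 52 probes were well above background on all 4 arrays.

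HCT116 is an established line of colorectal carcinoma cells. A clone of it with a vector control (vec) and a clone with PKP3 knocked down (shpkp3-2) were each measured on 2 single color arrays. The shpkp3-2 clone carries a stably transfected plasmid that encodes an shRNA against plakophilin3 (PKP3), a desmosomal plaque protein that links cell junctions to keratin filaments, and the vec clone carries the vector. The labels give IMDM medium and selection in 5 μg/ml of puromycin for the arrays of both clones, while the methods of the study name blasticidin for the HCT116 derived clones. RNA was collected on 2 occasions, each of which gave 1 array of vec and 1 of shpkp3-2. Each condition was 1 clone, so that the knockdown and any other difference between the clones cannot be told apart. The p-values measure only the spread between 2 RNA samples of a clone. In limma this spread, and so the SE, is drawn toward that of all probes tested. All 4 arrays were on 1 slide with the arrays of a clone side by side, so that position on the slide and clone cannot be told apart either.

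Cholesterol is made from acetyl-CoA through mevalonate, the isoprenoids, squalene and lanosterol, in a chain of enzymes most of which work in the endoplasmic reticulum. The genes of this chain are controlled together. When sterols in the membrane are low, the escort protein SCAP carries the SREBP transcription factors to the Golgi, where they are cut free to enter the nucleus, and when sterols are high the INSIG proteins hold SCAP back. SREBP-2, the product of SREBF2, acts mainly on cholesterol genes and SREBP-1c, a product of SREBF1, mainly on fatty acid genes, on promoters where they work with the factors NF-Y, which binds the CCAAT box, and Sp1, which binds the GC box. In colorectal tumors the fatty acid synthase FASN is often abundant.

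Promoters are shown for the members that the results turn on, which are HMGCS1, which had the highest difference of the members, MVK, LSS and HSD17B7, which had an unadjusted p under 0.05, and SREBF2, the gene of the sterol factor itself. Each is the stretch of 250 bases before the annotated start in RefSeq on GRCh38.p14, read 5′ to 3′ on the strand of the gene, and capitals mark CCAAT or its reverse complement and, in SREBF2, the core of a sterol regulatory element. HMGCS1 lies at chr5:43313413-43313662 on the minus strand, MVK at chr12:109573544-109573793 on the plus strand, LSS at chr21:46228775-46229024 on the minus strand, HSD17B7 at chr1:162790452-162790701 on the plus strand and SREBF2 at chr22:41832855-41833104 on the plus strand.
HMGCS1: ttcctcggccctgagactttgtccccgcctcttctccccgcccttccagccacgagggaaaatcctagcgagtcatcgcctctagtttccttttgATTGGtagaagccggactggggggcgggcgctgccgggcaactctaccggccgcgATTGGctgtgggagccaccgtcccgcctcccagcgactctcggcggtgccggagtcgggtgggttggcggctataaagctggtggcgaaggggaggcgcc
MVK: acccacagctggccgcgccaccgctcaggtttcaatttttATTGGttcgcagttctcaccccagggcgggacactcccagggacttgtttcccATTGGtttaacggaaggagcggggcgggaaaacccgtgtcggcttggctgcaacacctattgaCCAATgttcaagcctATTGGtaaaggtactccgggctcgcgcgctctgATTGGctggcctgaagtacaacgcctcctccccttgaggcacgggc
LSS: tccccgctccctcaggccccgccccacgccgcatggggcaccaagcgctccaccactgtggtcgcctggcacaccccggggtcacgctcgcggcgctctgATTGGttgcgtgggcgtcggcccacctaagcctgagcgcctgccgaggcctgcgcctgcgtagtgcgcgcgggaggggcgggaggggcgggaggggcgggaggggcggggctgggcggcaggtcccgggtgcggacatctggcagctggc
HSD17B7: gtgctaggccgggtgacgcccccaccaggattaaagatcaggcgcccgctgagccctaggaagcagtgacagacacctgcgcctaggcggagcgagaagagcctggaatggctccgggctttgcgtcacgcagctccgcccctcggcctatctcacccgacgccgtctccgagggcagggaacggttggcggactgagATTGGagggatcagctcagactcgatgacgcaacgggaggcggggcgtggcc
SREBF2: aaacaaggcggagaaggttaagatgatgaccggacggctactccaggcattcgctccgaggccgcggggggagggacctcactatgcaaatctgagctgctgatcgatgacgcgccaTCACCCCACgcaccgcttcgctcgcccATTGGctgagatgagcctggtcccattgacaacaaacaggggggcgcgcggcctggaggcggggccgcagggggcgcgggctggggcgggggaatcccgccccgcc

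A promoter was listed for 27 of the 31 members, the exceptions being ACAT2, FDFT1, SQLE and FASN. The letters CCAAT, searched on both strands over 250 bases and in each promoter that RefSeq lists for a gene, were present for 13 of 15 cholesterol enzymes (86.7%), and for 37.0% of all 27305 genes with a listed promoter. Among the members of sterol sensing and transport they were present for 3 of 6, and among the fatty acid enzymes also for 3 of 6. The MVK promoter held 5 such matches, the HMGCS1 promoter shown above 2, and the LSS, HSD17B7 and SREBF2 promoters 1 each. PMVK and CYP51A1 were the cholesterol enzymes without a match. The core TCACNCCAC was present only for SREBF2 among these 27 members, as TCACCCCAC, and for 1.09% of all genes. Only this spelling was searched, so members without a match may hold a sterol regulatory element spelled otherwise. The letters GGGCGG were present for 26 of 27 members (96.3%), NSDHL being the exception, and for 46.2% of all genes. The shares over all genes take in every gene with a listed promoter, tested on the arrays or not. They were not matched to the members in signal. These matches describe letters in a window and were not read as binding.

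**Figure D1:**
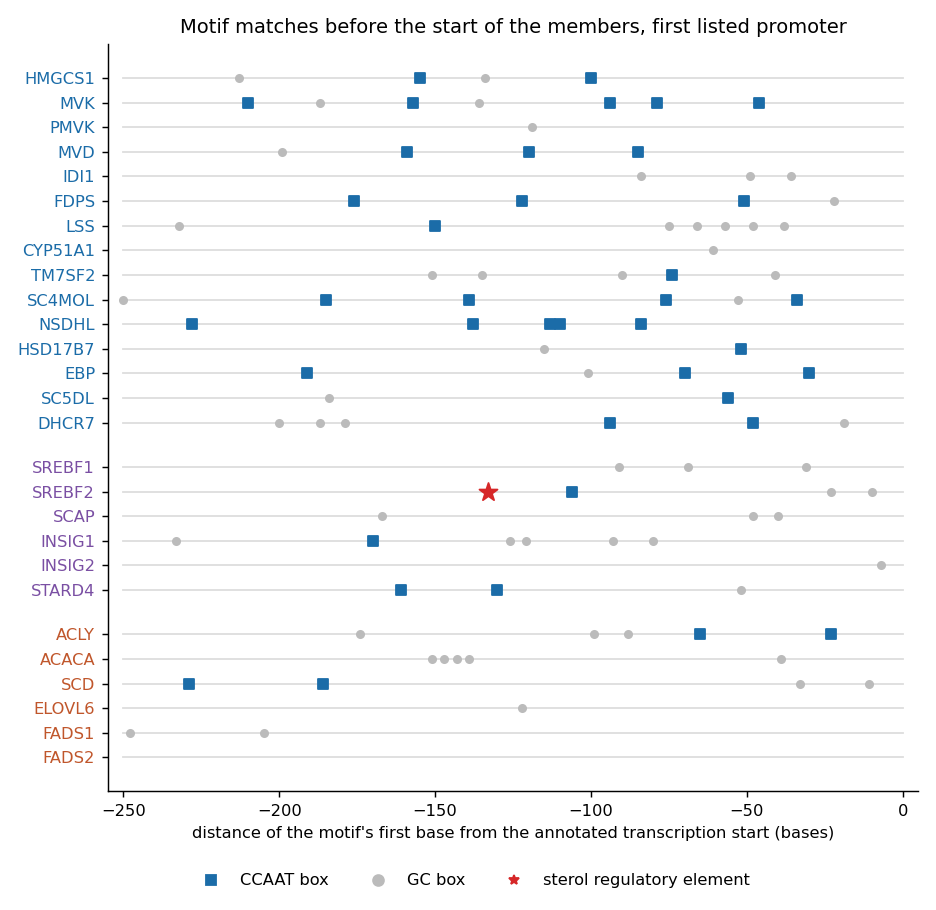
Positions of the CCAAT box, the GC box (the letters GGGCGG) and the sterol regulatory element on either strand in the first listed promoter of 27 members, as the distance in bases of the first base of the match from the annotated start, with names colored by group. Squares (CCAAT) mark most cholesterol enzymes, the star marks the element of SREBF2, and the CCAAT matches of IDI1 and ACACA and the GC box of FADS2 lie in other listed promoters that are not drawn.

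The knockdown of PKP3 was seen on both shpkp3-2 arrays. The processed signal of PKP3 was 20850.3 and 22839.8 on the vec arrays against 3414.4 and 3078.4 on the shpkp3-2 arrays, and its log2 difference was -2.54 ± 0.23 (SE, n = 2 arrays per clone, adjusted p = 0.0188 in limma). The adjusted p was 0.135 when dim probes were not filtered out and 0.145 with a weaker detection flag. The log2 scale used from here on is the log2 of the processed signal minus the 75th percentile of the same array, and a difference is shpkp3-2 minus vec on that scale. Before this scaling, the 75th percentile of the signal was 498.7 on the first vec array and between 374.2 and 381.1 on the other arrays. The vec arrays differed more from each other (r = 0.989) than the shpkp3-2 arrays did (r = 0.995), and r between the clones ran from 0.985 to 0.991. The median SD over the probes tested was 0.20 in vec against 0.12 in shpkp3-2. Of 9 markers of colorectal epithelium, 6 (EPCAM, KRT8, KRT18, KRT19, CDH1 and CDX2) passed the detection flag on every array, and CDX1 and CEACAM5 on none. The summed signal of the 9 markers was 549053 and 476699 in vec against 531241 and 534715 in shpkp3-2. Of 4 leukocyte markers, the defining marker PTPRC passed the detection flag on no array, and the summed signal was 204 and 160 in vec against 346 and 345 in shpkp3-2. That difference lay in CD68, a lysosomal glycoprotein (149 and 109 in vec against 296 on each shpkp3-2 array, adjusted p = 0.0459), and its part in the results was not tested.

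No member passed the adjusted test in either direction, and 29 of the 31 had a log2 difference above 0. With limma over 30512 probes and Benjamini-Hochberg adjustment, 0 members were called higher and 0 lower, where 0.266% of the named genes were called higher and 0.171% lower. The smallest adjusted p of a member was 0.373. No named gene with an absolute log2 difference under 1.42 was called, and the differences of all members were smaller, so that the count of 0 says little about them. At an unadjusted p under 0.05, 3 members were higher (HSD17B7, MVK and LSS) and 0 lower, against 7.06% and 4.46% of the named genes. This count of 3 was 0 with the RNA collection as a block, where 6.73% of all probes were higher at that p (7.35% without the block). It was 0 without the first shpkp3-2 array and 1 without the second, where the shares over all probes also fell, to 3.80% and 3.33%. It was 11 without the second vec array, where the share over all probes was 14.9%, and it ran from 0 to 8 over the other settings tried. Both shpkp3-2 arrays lay above both vec arrays for 21 members and below them for 0, while this held for 28.2% and 17.5% of the named genes. The median log2 difference of the members was 0.32 (range -0.01 to 0.55), and that of all named genes was 0.06. Of the named genes 58.1% were above 0, and 28 of the 31 members were above the median of 0.06. None of the members had a 2-fold difference on each shpkp3-2 array. An exact permutation test of 2 arrays against 2 cannot give a p under 0.333. In RNA of a whole culture, a change in the share of cells with a transcript and a change in transcript per cell cannot be told apart.

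**Figure D2:**
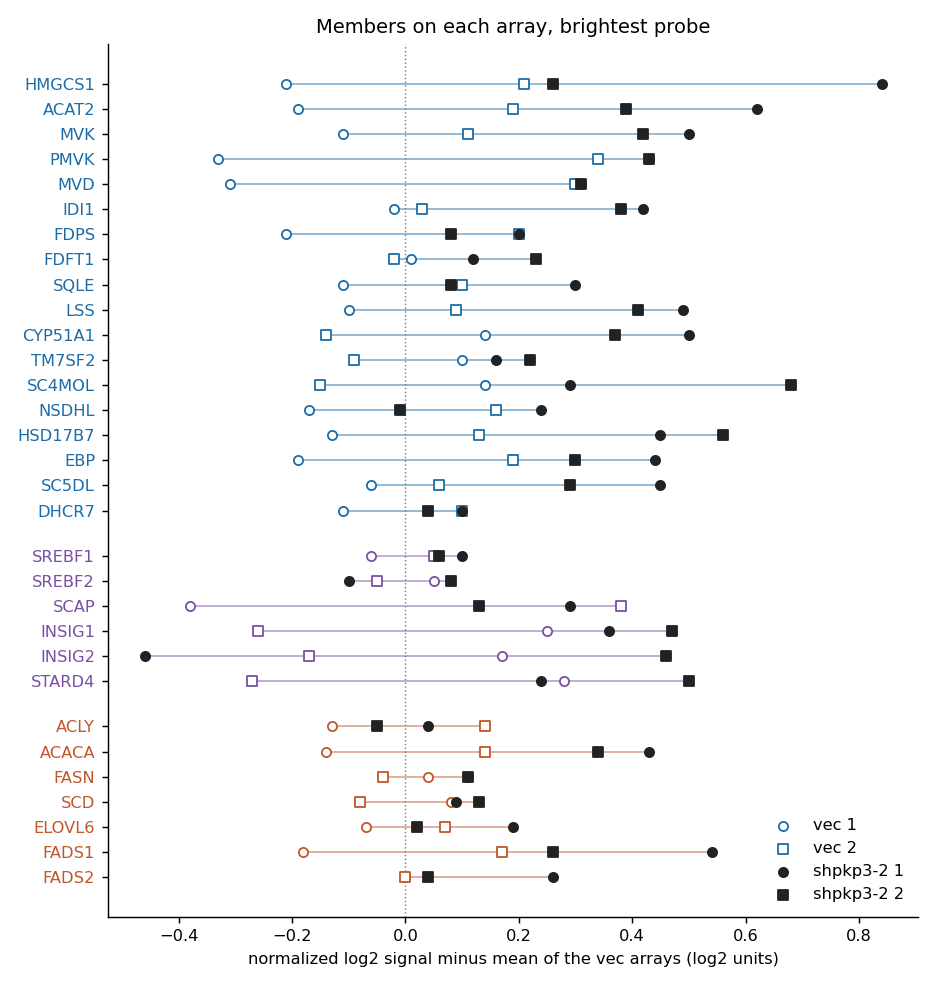
Normalized log2 signal of the brightest probe of each member on each of the 4 arrays, in log2 units relative to the mean of the vec arrays (open marks, vec; black marks, shpkp3-2; circles, first RNA collection; squares, second), with names colored by group. Black marks lie to the right of both open marks for 21 of the 31 members.

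The median difference differed between the RNA collections and without the first vec array. It was 0.41 in the first collection, where 28 members were above 0, and 0.15 in the second, where 24 were, against 0.11 and 0.02 for all named genes. Without the first vec array the median of the members was 0.19, and that of all probes tested was 0.02. The second vec array was above the first by a median of 0.19 over the members, and for 20 of the 31. The members were also bright. When the named genes were split into 4 equal classes by mean signal over the arrays, 17 members fell in the brightest class, 10 in the next, 3 in the one below and 1 in the dimmest. In the brightest class the median of all genes was 0.11, both shpkp3-2 arrays lay above both vec arrays for 35.9% of genes and the second vec array was above the first by a median of 0.16. Of the 17 members there, 12 lay apart in that way, and their median difference was 0.21. In the next class the share over all genes was 25.8%, and 6 of 10 members lay apart with a median of 0.34. The part of signal level and of the first vec array in the differences was not tested beyond these values. Leaving out 1 array moved the difference of 24 members by over 1.5 times or turned its sign, and the other 7 were CYP51A1, FDFT1, HSD17B7, IDI1, LSS, MVK and SC5DL.

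The cholesterol enzymes held the largest differences. All 18 had a difference above 0, with a median of 0.38 (range 0.07 to 0.55), and both shpkp3-2 arrays lay above both vec arrays for 14 of them, beside 28.2% of the named genes and 35.9% of those in the brightest class. The median normalized log2 signal over the 18 was 2.71 and 2.97 on the vec arrays against 3.22 and 3.18 on the shpkp3-2 arrays, so that both shpkp3-2 values were above both vec values. In the first collection 18 of 18 were above 0 with a median of 0.48, and in the second 14 of 18 with a median of 0.22. Quantile normalization left 17 of the 18 above 0, and leaving out the first vec array left 15.

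**Figure D3:**
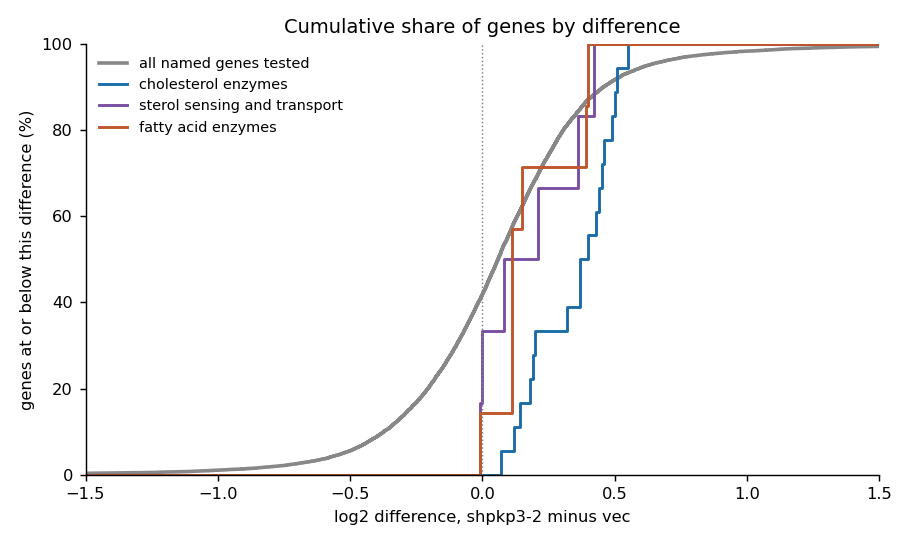
Cumulative share in percent of genes at or below each log2 difference (shpkp3-2 minus vec), for all 15761 named genes tested and for the 3 groups of members. The curve of the 18 cholesterol enzymes starts at 0.07 and has its median at 0.38, to the right of the curve of all genes with its median at 0.06.

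The chain opens with ACAT2, which joins a pair of acetyl-CoA molecules in the cytosol, and HMGCS1, which adds another to form HMG-CoA. The normalized log2 signal of HMGCS1 was 1.53 and 1.95 on the vec arrays against 2.58 and 2.00 on the shpkp3-2 arrays, a difference of 0.55 ± 0.27 (SE, 95% interval -0.11 to 1.21, adjusted p = 0.479). The groups did not overlap, but the second shpkp3-2 array stood only just above the second vec array, and the difference was 1.05 in the first collection and 0.05 in the second. A dimmer probe of HMGCS1 had a difference of 0.78 (unadjusted p = 0.00727, adjusted p = 0.231), with 1.00 and 0.56 in the 2 collections. ACAT2 stood at 3.86 and 4.24 in vec against 4.67 and 4.44 in shpkp3-2, and differed by 0.50 ± 0.21 (SE, 95% interval -0.02 to 1.03, adjusted p = 0.422). All shpkp3-2 values were above all vec values, and another probe of ACAT2 gave 0.52. The brightest probe of ACAT2 gave 0.81 in the first collection and 0.20 in the second, and 0.31 to 0.69 with 1 array left out.

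The mevalonate kinases and the decarboxylase that follow turn mevalonate into the first isoprenoid unit. MVK, the mevalonate kinase, stood at 4.08 and 4.30 in vec against 4.69 and 4.61 in shpkp3-2, and differed by 0.46 ± 0.18 (SE, 95% interval 0.01 to 0.91, unadjusted p = 0.0454, adjusted p = 0.396). The groups did not overlap on this probe, while a dim second probe of MVK gave -0.06 with both shpkp3-2 arrays below both vec arrays, so that the probes of this gene disagree. PMVK, the phosphomevalonate kinase, had 2.31 and 2.98 in vec against 3.07 on each shpkp3-2 array, a difference of 0.43 (adjusted p = 0.555). MVD, the mevalonate decarboxylase, had 1.72 and 2.33 in vec against 2.34 on each shpkp3-2 array, a difference of 0.32 (adjusted p = 0.629). In both genes the groups were kept apart by a narrow gap to the second vec array, and the difference came to 0.76 and 0.62 in the first collection and to 0.09 and 0.01 in the second.

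The isoprenoid and squalene steps had smaller differences except at IDI1. IDI1, which isomerizes isopentenyl diphosphate, was one of the members whose collections were most alike. Its values were 2.52 and 2.57 in vec against 2.96 and 2.92 in shpkp3-2, a difference of 0.40 (adjusted p = 0.429) with 0.44 and 0.36 in the collections. FDPS, which makes farnesyl diphosphate for sterols and for protein prenylation, differed by 0.14 and its groups overlapped. FDFT1, the squalene synthase, differed by 0.18 without overlap. SQLE, the squalene epoxidase and a rate-limiting enzyme of the chain, differed by 0.20 with overlapping groups. The adjusted p of these 3 genes was 0.701 to 0.807.

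The sterol steps start with LSS, which folds the squalene epoxide into lanosterol. LSS stood at 2.77 and 2.96 in vec against 3.36 and 3.28 in shpkp3-2, a difference of 0.45 ± 0.18 (SE, 95% interval 0.01 to 0.89, unadjusted p = 0.0465, adjusted p = 0.399). LSS had 4 probes, the other 3 gave 0.23, 0.62 and 0.55, and on each of them both shpkp3-2 arrays were above both vec arrays. CYP51A1, the demethylase of lanosterol, had 2.65 and 2.37 in vec against 3.01 and 2.88 in shpkp3-2, a difference of 0.44 (adjusted p = 0.440), and its second probe gave 0.65 (unadjusted p = 0.0117). The collections of CYP51A1 gave 0.36 and 0.51, the reverse of the order seen in HMGCS1. TM7SF2, a sterol reductase, differed by 0.19 on its brightest probe and by 0.18 on another.

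The remaining sterol enzymes remove methyl groups and rearrange double bonds. SC4MOL, the methylsterol oxidase now named MSMO1, stood at -1.23 and -1.52 in vec against -1.08 and -0.69 in shpkp3-2, a difference of 0.49 ± 0.22 (SE, 95% interval -0.06 to 1.04, adjusted p = 0.451). Its groups did not overlap, and its difference lay mostly in the second collection (0.84, against 0.14 in the first). HSD17B7, which reduces the ketone left by demethylation, stood at 0.33 and 0.59 in vec against 0.91 and 1.02 in shpkp3-2, a difference of 0.51 ± 0.19 (SE, 95% interval 0.05 to 0.97, unadjusted p = 0.0362, adjusted p = 0.373). A second probe of HSD17B7 gave 0.38, both probes kept the groups apart, and the 2 collections gave 0.58 and 0.44 on the brightest probe. A pseudogene close in sequence to HSD17B7 exists, and how far its transcripts reach these probes was not tested. EBP, a sterol isomerase, differed by 0.37 without overlap (0.63 and 0.12 in the collections, and 0.18 to 0.56 with 1 array left out). SC5DL, a sterol desaturase now named SC5D, also differed by 0.37 without overlap on its brightest probe. The other probes of SC5DL gave 0.19 and 0.21, each with overlapping groups. NSDHL, the sterol dehydrogenase that acts with SC4MOL, differed by 0.12 with overlapping groups. DHCR7, the reductase of the last step, stood at 4.48 and 4.69 in vec against 4.69 and 4.63 in shpkp3-2, so that the groups overlapped and the difference was 0.07 ± 0.18 (SE, 95% interval -0.37 to 0.52, adjusted p = 0.897).

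**Figure D4:**
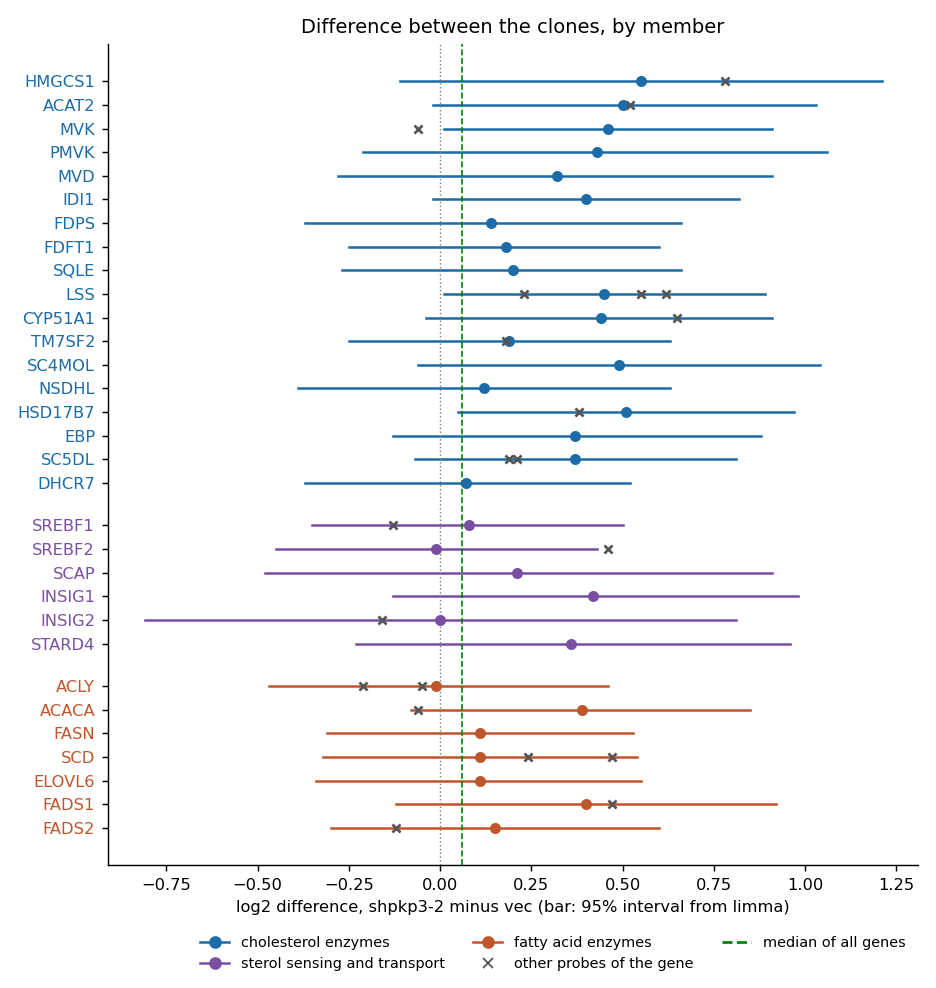
Log2 difference (shpkp3-2 minus vec) of the brightest probe of each member with its 95% interval from limma, by group, with crosses for the other probes of the gene and a dashed line at the median of all named genes (0.06). The intervals of HSD17B7, MVK and LSS lie above 0, those of the other 28 members include 0, and a cross of MVK lies below 0.

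The genes of sterol sensing and transport had a median of 0.15 (range -0.01 to 0.42), and both shpkp3-2 arrays lay above both vec arrays for 2 of 6, near the 28.2% of the named genes. SREBF2 stood at 2.47 and 2.37 in vec against 2.32 and 2.50 in shpkp3-2, a difference of -0.01 ± 0.18 (SE, 95% interval -0.45 to 0.43, adjusted p = 0.988), with overlapping groups. A dim second probe of SREBF2 gave 0.46 (adjusted p = 0.569), so that its probes disagree. SREBF1 stood at 6.14 and 6.25 in vec against 6.30 and 6.26 in shpkp3-2, a difference of 0.08 ± 0.17 (SE, 95% interval -0.35 to 0.50, adjusted p = 0.880), and its second probe gave -0.13. The array values of SREBF1 lay within a narrow range, with the groups apart by a small gap. Neither probe was tied here to the transcript of SREBP-1a or SREBP-1c.

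INSIG1 and INSIG2, which retain SCAP in the endoplasmic reticulum, gave unlike values. INSIG1, itself a target of the SREBP factors, had 1.17 and 0.66 in vec against 1.28 and 1.39 in shpkp3-2, a difference of 0.42 (adjusted p = 0.514) without overlap, which ran from 0.17 to 0.67 with 1 array left out. INSIG2 stood at 1.25 and 0.91 in vec against 0.62 and 1.54 in shpkp3-2, a difference of 0.00 ± 0.33 (SE, 95% interval -0.81 to 0.81, adjusted p = 0.998). The shpkp3-2 arrays of INSIG2 lay on either side of both vec arrays, at -0.62 in the first collection and 0.63 in the second, and its second probe gave -0.16. SCAP, the escort protein, differed by 0.21 (adjusted p = 0.783) with 0.68 and -0.25 in the collections. STARD4, which carries cholesterol between membranes, differed by 0.36 (adjusted p = 0.585) with -0.04 and 0.77. SREBF2 gave -0.15 and 0.13. The collections thus ran opposite ways for SCAP, STARD4, INSIG2 and SREBF2, and the group as a whole was higher in the second collection (median 0.38) than in the first (0.04), the reverse of the cholesterol enzymes. The median of the group was 0.30 without the first shpkp3-2 array and 0.06 with quantile normalization.

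**Figure D5:**
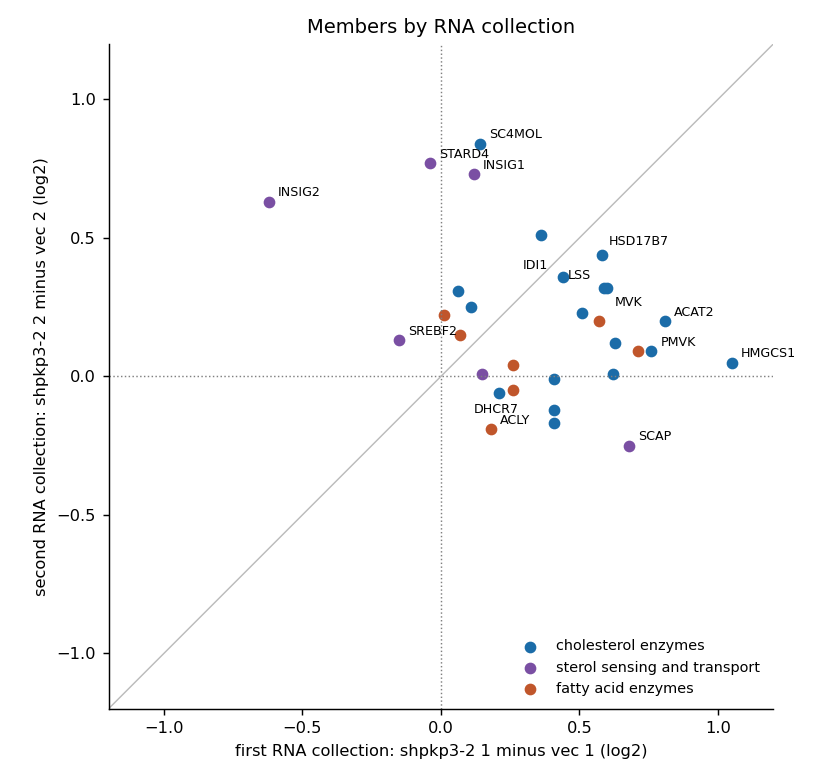
Log2 difference of each member in the first RNA collection (x axis, shpkp3-2 1 minus vec 1) and in the second (y axis, shpkp3-2 2 minus vec 2), colored by group, with a diagonal line of equal values. HMGCS1 lies far to the right at 1.05 and 0.05, SC4MOL, STARD4 and INSIG1 lie above the diagonal, and HSD17B7, IDI1, LSS and MVK lie near it or below it with both values above 0.

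The fatty acid enzymes had a median of 0.11 (range -0.01 to 0.40), with 6 of 7 above 0 (58.1% of the named genes) and both shpkp3-2 arrays above both vec arrays for 5 (28.2% of the named genes). Without the second shpkp3-2 array this median was 0.19, and with median centring it was 0.04. ACLY, which makes cytosolic acetyl-CoA from citrate for both pathways, stood at 5.47 and 5.74 in vec against 5.64 and 5.55 in shpkp3-2, a difference of -0.01 ± 0.19 (SE, 95% interval -0.47 to 0.46, adjusted p = 0.992). Its groups overlapped, and its other probes gave -0.05 and -0.21. ACACA, the acetyl-CoA carboxylase that commits carbon to fatty acids, differed by 0.39 (adjusted p = 0.480) on its brightest probe, at -2.62 and -2.34 in vec against -2.05 and -2.14 in shpkp3-2, while its second probe gave -0.06. FASN, the fatty acid synthase, differed by 0.11, with 0.04 and -0.04 in vec against 0.11 on each shpkp3-2 array. The RNA collections gave 0.07 and 0.15 for FASN, the closest pair of values in this group.

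The desaturases and the elongase act on the product of FASN or on dietary fatty acids. SCD, the stearoyl-CoA desaturase, differed by 0.11 on its brightest probe, by 0.47 (unadjusted p = 0.0468, adjusted p = 0.399) on the next and by 0.24 on the dimmest, and all 3 probes kept the groups apart. ELOVL6, which elongates palmitate, differed by 0.11 with overlapping groups. FADS1 and FADS2, neighbouring desaturase genes of polyunsaturated fatty acids, differed by 0.40 (adjusted p = 0.513) and 0.15 (adjusted p = 0.762). With 1 array left out, FADS1 ran from 0.23 to 0.57 and FADS2 from 0.04 to 0.26. Both kept the groups apart on the brightest probe, and the second probes gave 0.47 for FADS1 and -0.12 for FADS2, each with overlapping groups. Over the 31 members, 16 had several probes, and in 10 of these all probes had differences of one sign.

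Of 73 other genes of lipid synthesis and handling, all had a probe and 69 could be tested. Their median difference was 0.07, and 44 were above 0. At an adjusted p under 0.05, 0 were higher and 1 lower, beside 0.266% and 0.171% of the named genes. At an unadjusted p under 0.05, 6 were higher and 3 lower, near the shares of 7.06% and 4.46% over the named genes. Both shpkp3-2 arrays lay above both vec arrays for 26 and below them for 8, beside shares of 28.2% and 17.5%. By subset, the median was 0.12 over 7 genes of sterol sensing and SREBP processing, 0.07 over 13 of sterol uptake, esterification and efflux, 0.16 over 9 of the isoprenoid branch, 0.04 over 30 of fatty acid supply, elongation and esterification, and 0.03 over 10 of fatty acid breakdown. Each of these medians lay below the 0.38 of the cholesterol enzymes.

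The gene past the adjusted threshold was ABCA1, the pump that moves cholesterol out of the cell to apolipoproteins. ABCA1 was well above background on both vec arrays and on no shpkp3-2 array, with log2 means of -4.47 and -7.49, and was at least 1.87-fold lower in shpkp3-2 (adjusted p = 0.00802). The bound sets the mean of both vec arrays against the lowest signal that counted as well above background on the shpkp3-2 arrays. ABCA1 entered the fit through the vec arrays alone, and its shpkp3-2 values, below that signal, give only a bound and no measured spread, so that the p of this gene carries little weight. The other 2 probes of ABCA1 were well above background on no array. ABCA1 was not called with normexp background correction, without the filter on dim probes or with the weaker flag, and a stricter filter left it untested. The lower genes at an unadjusted p also held CPT1A, which brings fatty acids into mitochondria for oxidation, at -0.62 (adjusted p = 0.306) and -1.16 (adjusted p = 0.0896) on its 2 probes, and PAQR3, a Golgi anchor of SCAP, at -0.55 (adjusted p = 0.388) and -0.04 on its 2 probes. The highest of the 6 genes with an unadjusted p under 0.05 were MCAT, the acyl carrier transferase of mitochondrial fatty acid synthesis, at 0.74 (adjusted p = 0.206), ELOVL1, an elongase of very long chains, at 0.74 (adjusted p = 0.286), and DHDDS, which makes dolichol precursors, at 0.61 (adjusted p = 0.279). For MCAT a second probe gave 0.08, and for DHDDS the other probes gave 0.78 and 0.06.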

How the data were processed

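Cy3 labeled RNA of the vec and shpkp3-2 clones was run on single color Agilent arrays, grouped here by the clone names in the labels. The authors deposited the Feature Extraction output of each array, whose processed intensity is linear, background subtracted and detrended, with low signals replaced by surrogates and no scaling between arrays. The authors also deposited mean and local background intensities and flags of 0 or 1, which are other values. The file headers name version 10.7.3.1 of the software and the submitters' processing notes 9.1.

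Intensities were taken to log2, and the 75th percentile over 51538 spots was subtracted per array. Outlier spots (26 to 39 per array) were dropped and spots of a probe averaged. The 30512 probes well above background on both arrays of a clone were fitted with limma 3.58.1 in R 4.3.3 (lmFit, eBayes, no covariates, Benjamini-Hochberg, threshold 0.05, two-sided). The number of arrays, 2 per clone, limits the precision. Of the 52 member probes, 48 matched RefSeq by accession. Python 3.11.15, numpy 2.4.6, pandas 2.3.3 and matplotlib 3.10.9 gave the counts and plots, and the fit was tested on simulated data.

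The series' design text pairs arrays 1 and arrays 2 by RNA collection. After subtraction of the clone means, same-numbered arrays correlated at -0.199 over the probes. The study states no block, so the comparison has none, and the block is an alternative. The other alternatives were normexp correction (offset 50), quantile normalization, median centring, 3 other filters on dim probes, each array left out, a trended and robust prior, and the mean of all probes of a gene.

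All 31 members are named, with full values for the 5 highest and 5 lowest differences. Of the other lipid genes, those past the adjusted threshold and up to 3 highest and 3 lowest at an unadjusted p under 0.05 are named. The values of other members and probes were added after they were seen. The members, the other lipid genes and the markers were chosen with earlier results of these data known. Of the other marker lists, 2 of 6 of stratified epithelium, 1 of 5 of fibroblasts and 3 of 4 of leukocytes were well above background on all arrays, with summed signals of at most 348, and PTPRC, KRT5 and DSG3 were on none.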

Additional observations from a re-analysis of the deposited data

How the results depend on the processing

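Counts of members past the adjusted threshold were 0 in both directions under all 14 alternatives, a test that no named gene with a difference under 1.42 passed as reported. The count at an unadjusted p (3) was 8 with normexp, 6 with a trended and robust prior, 1 with quantile normalization, 0 with median centring, 0 without a filter, 0 with the weaker flag, and 0 to 11 with 1 array left out. The share of all probes higher at that p was 7.35% at first, and 7.34%, 7.71%, 5.95%, 5.32%, 4.29% and 6.25% under these settings in that order, and 3.33% to 14.9% with 1 array left out. The replicate block, which pairs arrays by RNA collection, gave 0, where 6.73% of all probes were higher at that p. A crossed pairing chosen after the data were seen gave 6, where 8.99% of all probes were. Among the members, PKP3 and the other lipid genes the replicate block changed no other call, while over all probes it raised the calls from 75 to 503 higher and from 44 to 338 lower. The median difference of the members (0.32) was 0.27 with normexp and with quantile normalization, 0.25 with median centring, 0.23 with the mean of all probes, and 0.19 to 0.30 with 1 array left out. That of the cholesterol enzymes stayed between 0.30 and 0.43. PKP3 kept its difference of -2.54 without a filter and with the weaker flag, but not its call. The share of all probes called lower was 0.144% at first, and 0.016% and 0.00264% under these settings. It was 0.0727% with probes above background on all arrays. The count of other lipid genes called (1) was 0 without a filter, 0 with the weaker flag and 0 with probes above background on all arrays, and 1 to 2 with 1 array left out, where ME1 was called higher beside ABCA1 without the first shpkp3-2 array. The ME1 call rests on 1 array, as its log2 signal was 4.69 on the second shpkp3-2 array, 2.20 on the first and 2.53 and 2.30 in vec, and its other probes gave -0.41 and -0.29 over all arrays. With normexp the gene called was MCAT in place of ABCA1.

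Members whose difference changed sign were all near 0 or had overlapping groups. With quantile normalization DHCR7 was at -0.02, SREBF1 at -0.02 and INSIG2 at -0.03. INSIG2 was at 0.00, just below 0, with normexp, and at -0.07 with median centring. With the mean of all probes INSIG2 was at -0.08, SREBF1 at -0.03 and SREBF2 at 0.23. With 1 array left out, ACLY ran from -0.14 to 0.13, DHCR7 from -0.03 to 0.18, FDPS from -0.06 to 0.35, INSIG2 from -0.45 to 0.46, NSDHL from -0.05 to 0.28, SCAP from -0.17 to 0.59 and SREBF2 from -0.10 to 0.08. The cause of these changes was not tested. With 2 arrays per clone, differences of the size seen here were mostly within their 95% intervals of 0, and a clone left with 1 array is assumed to vary like the other.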
